A study of Mus musculus with 10 samples.

Results

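The genes described here are the cytochrome P450 families Cyp1, Cyp2 and Cyp3 of the mouse, the haem enzymes of the endoplasmic reticulum that oxidise drugs, pollutants, steroids and fatty acids in liver. They were taken by name: every protein-coding gene whose symbol on the GRCm38 build is Cyp1, Cyp2 or Cyp3 followed by a letter and digits, present in both liver tables. This gave 58 genes of 55487 in the tables, of which 3 belong to Cyp1, 48 to Cyp2 and 7 to Cyp3. Most lie in clusters of related copies, with 15 on chromosome 7, 15 on chromosome 19, 8 each on chromosomes 4, 5 and 15, 2 on chromosome 9 and 1 each on chromosomes 3 and 17.

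Transcripts were counted in whole liver regrowing after partial hepatectomy (PHx), the surgical removal of most of the organ. All mice were C57BL/6J, labelled male and 8 weeks old. The diet experiment set a high-fat diet (HFD), fed for 7 days up to PHx, against regular chow fed for as long, with livers collected at 40 hours after surgery (3 libraries per group, from 3 individuals per group by the design text). The inhibitor experiment set SSO, dosed at 40 mg/kg on the day preceding PHx, against the solvent alone (vehicle), with livers collected at 48 hours (4 libraries per group). SSO is not spelled out in the labels; the abbreviation is in common use for sulfosuccinimidyl oleate, which blocks fatty acid uptake through CD36. They name 8 mice per group there without tying a library to an animal, so p-values in that experiment measure the spread between libraries. No genetic change was labelled in any of these mice, and no unoperated liver was set beside them, so the levels are those of a regenerating remnant in every group.

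P450 enzymes take electrons from the reductase encoded by Por and need haem, whose synthesis starts with the enzyme encoded by Alas1. Cyp1 genes are classic targets of the aryl hydrocarbon receptor (Ahr), Cyp2b genes of the receptor CAR (Nr1i3), and Cyp3a genes of the receptor PXR (Nr1i2). Many are expressed in hepatocytes near the central vein, and in mouse liver a set of them is set by the sex-specific rhythm of growth hormone, with some genes predominant in females and others in males.

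Each diet library held 31.9 to 39.9 M counts and each inhibitor library 25.2 to 30.4 M. Levels are given as CPM, the counts of a gene per M counts of the scaled library size. For a gene with 0 counts the upper limit is taken as 3 counts, equal to 0.0770 to 0.0922 CPM in the diet libraries and 0.0817 to 0.136 CPM in the inhibitor libraries (counting error only). Hepatocyte markers summed to 109117 to 135440 CPM across the diet libraries and 90282 to 132099 CPM across the inhibitor libraries. The labels describe all mice as male, but by their sex transcripts the inhibitor libraries went against this. Xist, which is made from the inactive X chromosome, stood at 1580.5 to 1772 CPM in SSO and 698 to 1608 CPM in vehicle libraries, where the Y-linked gene Ddx3y had 0 counts in all 8. In the diet libraries Ddx3y measured 55.0 to 76.3 CPM and Xist 0 to 0.620 CPM. Because a whole-liver library mixes cell types, fewer cells of a type and less RNA per cell cannot be told apart in any value below.

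Of the 58 genes, 40 passed the filter on low counts and were tested in the diet experiment and 47 in the inhibitor experiment. The 40 were tested in both, 11 in neither, and 6 had 0 counts in every library. The untested genes never exceeded a group mean of 2.86 CPM in the diet experiment or 0.701 CPM in the inhibitor experiment. The 6 genes at 0 everywhere were Cyp2b19, Cyp2c66, Cyp2j7, Cyp2j11, Cyp2j12 and Cyp2w1. Per kb of exon, Cyp2e1, which oxidises ethanol, acetaminophen and ketone bodies, stood first in both experiments, at a mean level of 2855 CPM per kb over the diet libraries and 1468 CPM per kb over the inhibitor libraries. In the diet libraries it was followed by Cyp2d26 at 599.9, Cyp2d9 at 461, Cyp2d10 at 415, Cyp1a2 at 355 and Cyp3a11 at 320.5 CPM per kb. In the inhibitor libraries the next were Cyp1a2 at 1398, Cyp3a11 at 532, Cyp2d26 at 432, Cyp2d10 at 430.4 and Cyp2a5 at 374 CPM per kb.

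Several members are near copies of a neighbour, which limits how far their counts can be separated. For 8 genes, more than 10% of the stretches of 100 bases in their exons also occur in another gene: Cyp2a4, Cyp2a5, Cyp2c40, Cyp2c67, Cyp2c68, Cyp2c69, Cyp2d10 and Cyp2d11, with 11.2% to 35.4%. The values of these genes are uncertain by the reads that such stretches share. Cyp2f2 and Cyp2u1 overlap genes on the other strand over 13.5% and 10.5% of their exon length, and the strand setting of the counting is not given in the sources used here, so reads of both strands cannot be told apart.

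HFD livers were set against chow livers to see which transcripts differ when mice enter surgery with more dietary fat. In HFD livers the Cyp3a genes Cyp3a25 and Cyp3a59 fell, at 3.15-fold and 4.25-fold lower levels than in chow livers, and Cyp2d40 rose 2.05-fold. Of the 40 log2 fold changes, 33 were below 0, against 52.7% of all genes tested, and 7 above 0, against 47.3%. The call used edgeR's quasi-likelihood test with Benjamini-Hochberg adjustment over all 15589 genes tested, at an adjusted p under 0.05. It called 3 of the 40 genes (2.32% of all genes tested), 1 higher (1.6% of all genes) and 2 lower (0.718% of all genes). At an unadjusted p under 0.05, 20 of 40 were lower in HFD livers, against 7.47% of all genes, and 1 was higher, against 7.52%. Fitted changes of at least 2-fold were seen in 17 genes on the lower side (4.0% of all genes) and 1 on the higher side (4.05%). The HFD and chow libraries did not overlap for 17 genes on the lower side, against 10.8% of all genes, and for 1 on the higher side, against 11.2%. DESeq2 called 20 members lower, against 2.22% of all genes to which it gave an adjusted p, and 1 higher, against 2.97%. The median log2 fold change was -0.90 over the 40 genes and -0.02 over all genes tested. These counts cover the members that passed the filter on low counts and are given as a description. These families took 1.19% to 1.36% of all counts in the HFD libraries and 1.91% to 2.54% in the chow libraries, without overlap.

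**Figure D1:**
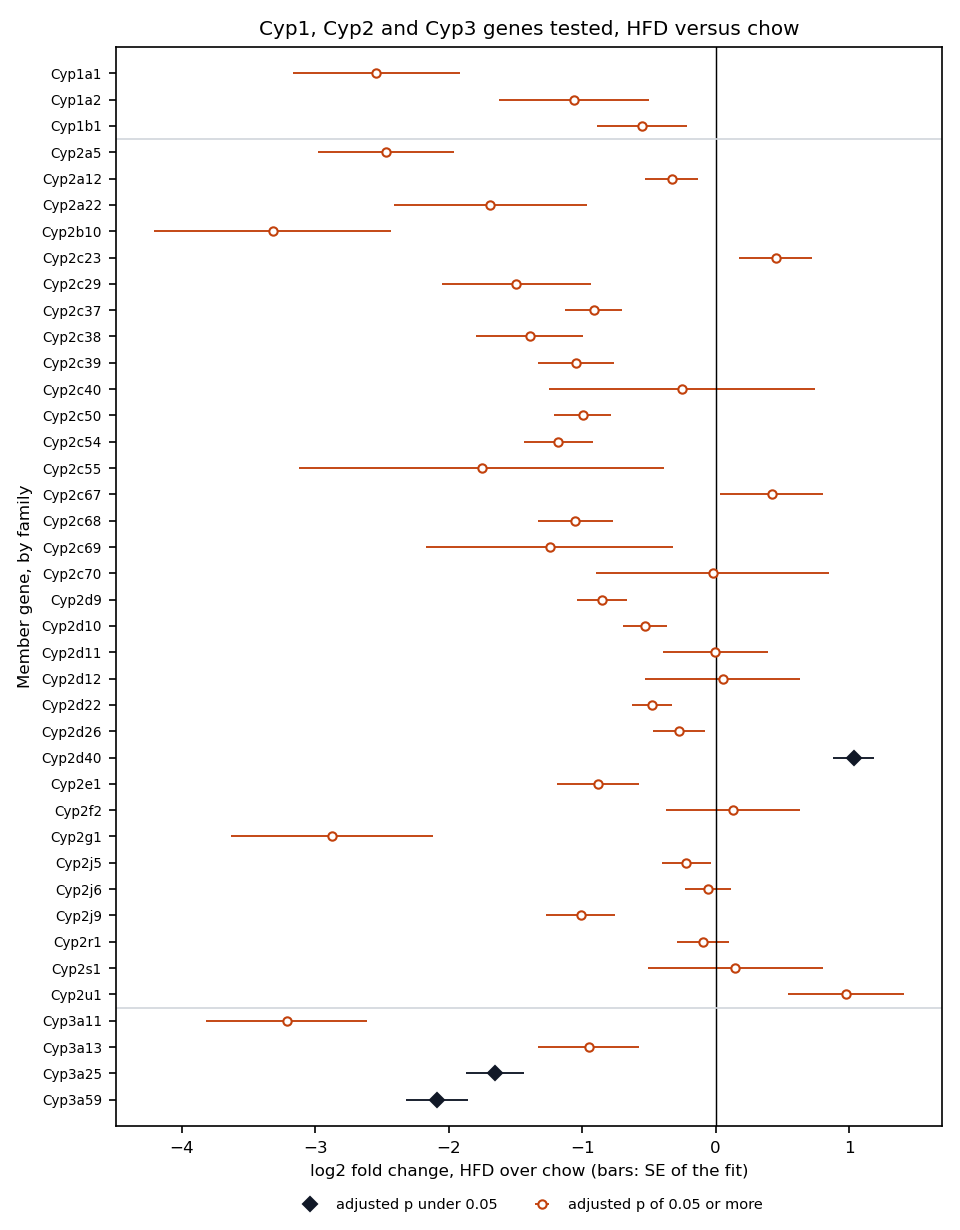
Fitted log2 fold change of HFD over chow for the 40 Cyp1, Cyp2 and Cyp3 genes tested (x axis), by family down the page; points are the edgeR estimates, bars the SE of the fit, and filled diamonds the genes with an adjusted p under 0.05. The 4 Cyp3a genes tested all lie below 0, and Cyp2d40 is the gene on the right that passed the test.

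Cyp3a25 and Cyp3a59 encode steroid and drug oxidising enzymes of the mouse Cyp3a cluster on chromosome 5. Cyp3a25 (ENSMUSG00000029630, chromosome 5, 145977194 to 146009618, minus strand) measured 164, 268 and 173 CPM in HFD 1 to 3, against 598, 714 and 594 CPM in chow 1 to 3. Cyp3a59 (ENSMUSG00000061292, chromosome 5, 146079257 to 146113287, plus strand) measured 11.0, 16.7 and 8.95 CPM in HFD 1 to 3, against 47.3, 59.5 and 49.3 CPM in chow 1 to 3. In both genes every HFD library was below every chow library, and HFD 2 was the highest of its group as chow 2 was of the other. Cyp3a25 averaged 202 ± 57.6 CPM in HFD livers and 635 ± 68.4 CPM in chow livers (SD, n = 3 each), a log2 fold change of -1.66 ± 0.22 (SE; edgeR adjusted p = 0.00756). Cyp3a59 averaged 12.2 ± 4.04 CPM in HFD livers and 52.0 ± 6.54 CPM in chow livers (SD, n = 3 each), a log2 fold change of -2.09 ± 0.23 (SE; edgeR adjusted p = 0.00375). Without HFD 1 the adjusted p was 0.0623 for Cyp3a25 and 0.0397 for Cyp3a59. The genes share 6.79% and 7.39% of their stretches of 100 bases, so a part of their counts could come from each other.

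The starts of these neighbours lie 69.6 kb apart and run in opposite directions. Their promoters are shown because the genes changed together and their bases before the start are nearly the same, with 238 of 249 aligned bases identical (95.6%). The capitals mark AGGTCA or its reverse complement TGACCT, the hexamer bound by many nuclear receptors. Sequences are from RefSeq (GRCm38.p6), 5′ to 3′ on the strand of the gene, the 250 bases before the start: chr5:146009619-146009868 (minus strand) for Cyp3a25 and chr5:146079008-146079257 (plus strand) for Cyp3a59.
Cyp3a25: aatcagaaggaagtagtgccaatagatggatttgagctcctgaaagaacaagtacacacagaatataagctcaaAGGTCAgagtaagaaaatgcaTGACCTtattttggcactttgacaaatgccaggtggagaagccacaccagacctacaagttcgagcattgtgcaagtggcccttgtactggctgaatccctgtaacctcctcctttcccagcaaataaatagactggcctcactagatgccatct
Cyp3a59: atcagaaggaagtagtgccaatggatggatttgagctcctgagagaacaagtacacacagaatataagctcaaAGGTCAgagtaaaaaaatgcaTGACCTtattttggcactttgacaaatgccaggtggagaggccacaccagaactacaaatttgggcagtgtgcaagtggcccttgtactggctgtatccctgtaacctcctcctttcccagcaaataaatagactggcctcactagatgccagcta
In each promoter the hexamer occurs once in each orientation. Its first base lies 176 and 155 bases before the RefSeq start in Cyp3a25, and 177 and 156 bases before it in Cyp3a59. For Cyp3a59 the RefSeq start lies 1 base after the start of the gene given above, so the last printed base is that gene's first. A promoter entry was found for 50 of the 58 genes, and AGGTCA, read on both strands, occurred in 14 of these (28%), against 14.0% of 32851 promoters of all genes. The 14 include Cyp3a11, Cyp3a44, Cyp2b9, Cyp2b13 and Cyp2c29. GCGTG, the core bound by the aryl hydrocarbon receptor, occurred in 8 of the 50 (16.0%), among them Cyp1a1 and Cyp1b1, against 28.2% of all promoters. TTGCNNAA, a form of the site bound by C/EBP factors, occurred in 13 of the 50 (26.0%), against 9.56% of all promoters. TTCNNNGAA, the site bound by STAT5, occurred in 2 of the 50 (4.0%), against 7.02%. The motifs were searched on both strands, those of near copies are not independent, and a match in this window is a description of the letters only.

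Cyp3a11, the main drug-inducible Cyp3a gene of mouse liver and a PXR target (chromosome 5, 145854426 to 145879964), had the lowest fold change of the Cyp3a genes but missed the test. It measured 211, 432 and 309 CPM in HFD 1 to 3, against 5605, 1383 and 1853 CPM in chow 1 to 3. All HFD libraries lay below all chow libraries, and chow 1 was far above the other chow libraries. The log2 fold change was -3.21 ± 0.60 (SE; edgeR adjusted p = 0.0517). Without chow 1 it was -2.34 with an adjusted p of 0.00577. Cyp3a13, a more distant Cyp3a gene (chromosome 5, 137892932 to 137921619), measured 137, 184 and 174 CPM in HFD 1 to 3, against 151, 331 and 473 CPM in chow 1 to 3, and the groups overlapped (log2 fold change -0.95 ± 0.38, adjusted p = 0.295). Summed over the 7 Cyp3a genes, the level was 523 to 900.3 CPM in HFD livers and 2488 to 6403 CPM in chow livers.

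Cyp2d40, a gene of the Cyp2d cluster on chromosome 15 (ENSMUSG00000068083, 82759833 to 82764183, minus strand), was the member that rose. It measured 159, 120.2 and 139 CPM in HFD 1 to 3, against 59.5, 70.7 and 73.9 CPM in chow 1 to 3. The lowest HFD library was well above the highest chow library. The means were 139 ± 19.6 CPM in HFD livers and 68.0 ± 7.52 CPM in chow livers (SD, n = 3 each), a log2 fold change of 1.04 ± 0.15 (SE; edgeR adjusted p = 0.0109). The adjusted p was 0.0708 without HFD 1 and 0.0553 without HFD 3. No stretch of 100 bases of Cyp2d40 occurs in another gene.

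The other named Cyp2d genes were not called by edgeR. DESeq2 called Cyp2d9 and Cyp2d10 lower, and limma-voom and edgeR without the filter called Cyp2d9 lower, as did edgeR without chow 1 or chow 3. Cyp2d9, the testosterone hydroxylase predominant in male mouse liver (chromosome 15, 82433437 to 82456845), measured 804, 823 and 992 CPM in HFD 1 to 3, against 1432, 1868 and 1427 CPM in chow 1 to 3. The groups did not overlap, and the log2 fold change was -0.85 ± 0.19 (SE; edgeR adjusted p = 0.0559). Cyp2d10 measured 511, 545 and 625 CPM in HFD 1 to 3, against 819.9, 870.4 and 734 CPM in chow 1 to 3 (log2 fold change -0.53, adjusted p = 0.159), and its groups did not overlap either. Cyp2d26 measured 973, 947 and 998 CPM in HFD 1 to 3, against 911, 1425 and 1196 CPM in chow 1 to 3, with overlap (log2 fold change -0.28, adjusted p = 0.566). Of the 7 Cyp2d genes tested, 5 were below 0 and 2 above, the second being Cyp2d12 at 0.05 with a level under 1 CPM.

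**Figure D2:**
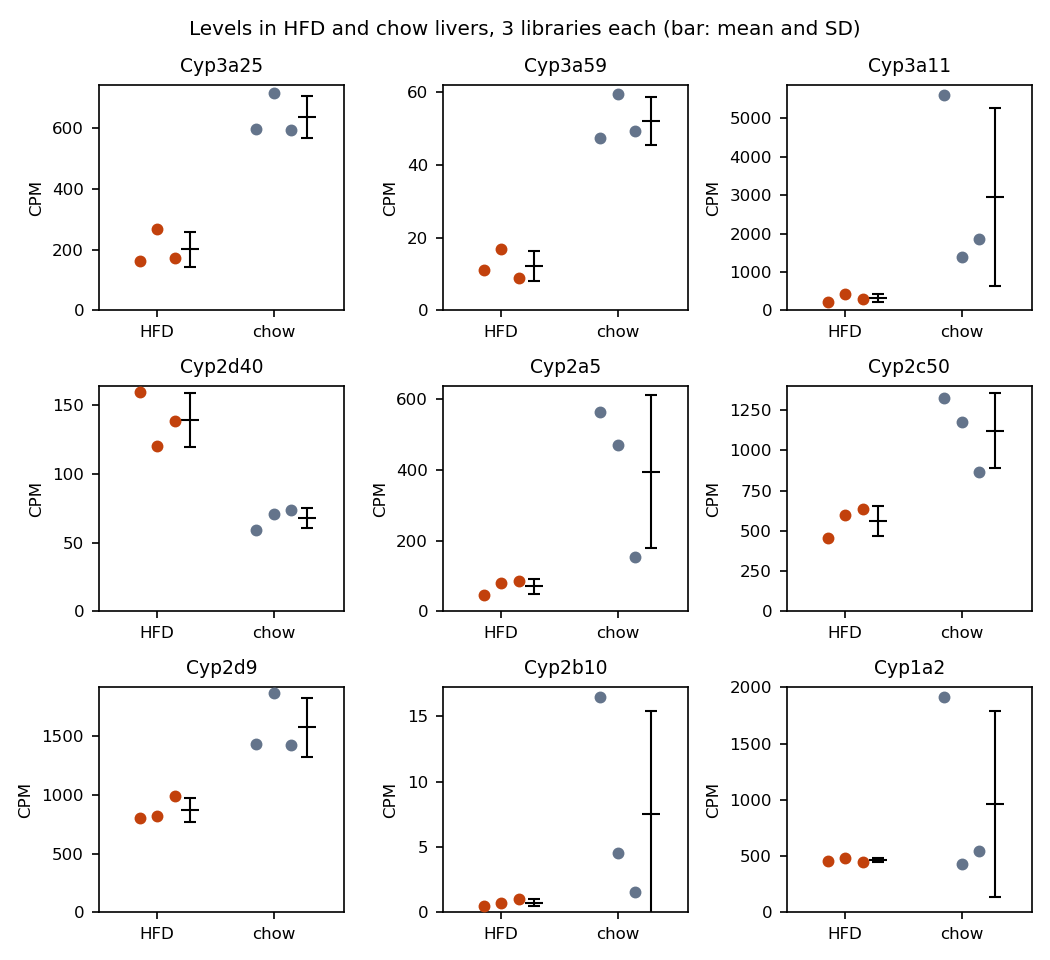
Levels of 9 members in each library (CPM, linear axes from 0), HFD left and chow right, with 3 points per group in the order of the libraries and a bar for the mean and SD (cut at 0 where it runs below). Cyp3a25, Cyp3a59 and Cyp2d40 are separated with small spread. For Cyp3a11, Cyp2b10 and Cyp1a2, chow 1 lies far above the other chow libraries. All chow libraries still lie above all HFD libraries for Cyp3a11 and Cyp2b10, while the groups overlap for Cyp1a2.

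None of the Cyp1 genes was called by edgeR with the filter and every library, and Cyp1a1 was called lower by DESeq2 and by edgeR without the filter or without chow 3. Cyp1a2, which oxidises caffeine and aromatic amines and is a pericentral hepatocyte gene, measured 457, 482 and 449 CPM in HFD 1 to 3, against 1918, 431 and 545 CPM in chow 1 to 3. Chow 1 stood alone and chow 2 was below all HFD libraries (log2 fold change -1.06 ± 0.56, adjusted p = 0.452, and -0.07 without chow 1). Cyp1a1, which oxidises polycyclic aromatic hydrocarbons and is barely expressed without an inducer, measured 0.221, 0.242 and 0.384 CPM in HFD 1 to 3, against 1.26, 3.03 and 0.676 CPM in chow 1 to 3. The groups did not overlap at these low levels (log2 fold change -2.54 ± 0.63, edgeR adjusted p = 0.0797). Cyp1b1, better known outside hepatocytes, measured 1.02, 1.39 and 1.65 CPM in HFD 1 to 3, against 1.98, 1.62 and 2.37 CPM in chow 1 to 3, with overlap (adjusted p = 0.495).

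The Cyp2a and Cyp2b genes were near absent or low in the diet livers, except for Cyp2a5 and Cyp2a12. Cyp2a5, the coumarin and nicotine hydroxylase (chromosome 7, 26835305 to 26843548), measured 47.3, 80.2 and 86.2 CPM in HFD 1 to 3, against 563, 470.0 and 153 CPM in chow 1 to 3. All HFD libraries were below all chow libraries, and chow 3 was the nearest to them (log2 fold change -2.47 ± 0.51, edgeR adjusted p = 0.0705, and 0.00156 without chow 3). Cyp2b10, the standard CAR target (chromosome 7, 25897620 to 25926624), measured 0.496, 0.756 and 1.0 CPM in HFD 1 to 3, against 16.4, 4.55 and 1.54 CPM in chow 1 to 3. The groups did not overlap, but the chow libraries were far from each other (log2 fold change -3.32 ± 0.89, adjusted p = 0.145). Cyp2a4, Cyp2b9 and Cyp2b13 were too low to be tested and are taken up below with the sex-predominant genes.

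Among the 15 Cyp2c genes, which epoxidise arachidonic and linoleic acid and clear many drugs, 13 were tested, 0 were called by edgeR and 11 were below 0. In 6 the groups did not overlap, all on the lower side, against 10.8% of all genes. DESeq2 called 6 lower (Cyp2c37, Cyp2c38, Cyp2c39, Cyp2c50, Cyp2c54 and Cyp2c68), against 2.22% of all genes. At an unadjusted p under 0.05, the lower side held Cyp2c29, Cyp2c37, Cyp2c38, Cyp2c39, Cyp2c50, Cyp2c54 and Cyp2c68. Cyp2c50 (chromosome 19, 40089688 to 40113950) measured 457, 597 and 635 CPM in HFD 1 to 3, against 1329, 1175 and 868 CPM in chow 1 to 3. The separation was clear, and the test narrowly missed (log2 fold change -1.0 ± 0.21, edgeR adjusted p = 0.0511). Cyp2c29, a CAR-responsive epoxygenase (chromosome 19, 39269405 to 39330713), measured 387, 484 and 457 CPM in HFD 1 to 3, against 2457, 694 and 590.0 CPM in chow 1 to 3. Its difference rested largely on chow 1, with a log2 fold change of -1.49 (adjusted p = 0.28) and -0.53 without that library. Cyp2c23 and Cyp2c67 were the Cyp2c genes above 0, at 0.45 and 0.42. Cyp2c70, which makes the muricholic acids of mouse bile, measured 643, 534 and 138 CPM in HFD 1 to 3, against 854, 106 and 375 CPM in chow 1 to 3, with libraries of both groups scattered (log2 fold change -0.02, adjusted p = 0.995).

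The remaining named genes were not called by edgeR. Cyp2e1 was called lower by DESeq2 (adjusted p = 0.0256) and by edgeR without chow 1 (adjusted p = 0.0174), and Cyp2f2 was called higher by edgeR without chow 1 (log2 fold change 0.95, adjusted p = 0.0394). Cyp2e1 measured 3542, 4306 and 5163 CPM in HFD 1 to 3, against 4634, 8996 and 10319.6 CPM in chow 1 to 3, and chow 1 fell within the HFD range (log2 fold change -0.88 ± 0.31, adjusted p = 0.216). Cyp2f2, a periportal gene that oxidises naphthalene, measured 466, 338 and 323 CPM in HFD 1 to 3, against 642, 217 and 172 CPM in chow 1 to 3. Here chow libraries lay on both sides of the HFD libraries (log2 fold change 0.13, adjusted p = 0.945). Cyp2r1, a vitamin D hydroxylase, measured 14.2, 13.8 and 13.5 CPM in HFD 1 to 3, against 17.2, 16.6 and 10.5 CPM in chow 1 to 3 (adjusted p = 0.872). Cyp2u1, a fatty acid hydroxylase, measured 53.5, 52.6 and 33.7 CPM in HFD 1 to 3, against 37.0, 10.8 and 23.1 CPM in chow 1 to 3, with HFD 3 inside the chow range (log2 fold change 0.98 ± 0.44, adjusted p = 0.368).

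The chow libraries differed among themselves more than the HFD libraries. The median SD of a tested member on the log2 scale (CPM + 0.5) was 0.31 in HFD and 0.58 in chow livers, against 0.18 and 0.25 over all genes tested in the same groups. Chow 1 was the highest chow library in 21 of 40 members (35.1% of all genes), and chow 3 was the lowest in 29 of 40 (34.6% of all genes). Leaving out chow 3 brought the members called lower to 11 (0.868% of all genes), leaving out chow 1 to 6 (1.66% of all genes) and leaving out HFD 1 to 1 (0.0617% of all genes). Cyp3a59 was called lower in each of the 6 fits that left out a library.

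The receptors and partners of these enzymes were read from the same fit. Ahr measured 38.0, 42.5 and 46.3 CPM in HFD 1 to 3, against 65.3, 71.4 and 81.4 CPM in chow 1 to 3, and fell in HFD livers (log2 fold change -0.78 ± 0.14, edgeR adjusted p = 0.0231). Nr1i2, encoding PXR, measured 45.0, 41.9 and 53.8 CPM in HFD 1 to 3, against 68.8, 82.9 and 78.8 CPM in chow 1 to 3, and fell as well (-0.71 ± 0.14, adjusted p = 0.0388). For both receptors the groups were apart and even. Nr1i3, encoding CAR, measured 11.3, 9.28 and 17.4 CPM in HFD 1 to 3, against 16.5, 55.3 and 24.6 CPM in chow 1 to 3, with overlap (adjusted p = 0.265). Por measured 197, 164 and 264 CPM in HFD 1 to 3, against 329, 974 and 665 CPM in chow 1 to 3, apart but uneven (log2 fold change -1.65 ± 0.38, adjusted p = 0.0792). Cyb5a, the cytochrome b5 that passes electrons to P450 enzymes, fell (588 ± 66.3 CPM in HFD and 1040.1 ± 67.3 CPM in chow livers, SD, n = 3 each; log2 fold change -0.82, adjusted p = 0.0388). Alas1 averaged 337 CPM in HFD and 947 CPM in chow livers and missed the test (adjusted p = 0.0573).

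By list, edgeR called 1 of 9 tested genes of the Ahr pathway lower, Ahr itself. It also called lower 2 of 21 of the CAR and PXR pathway (Nr1i2 and the transporter gene Slco1a4) and 1 of 15 redox partners and haem genes. In each list 0 were called higher. Over all genes tested, 0.718% were called lower and 1.6% higher. At an unadjusted p under 0.05, 2, 11 and 4 were lower and 0, 1 and 0 higher (7.47% and 7.52% of all genes). Por and Alas1 are in both the CAR and PXR list and the redox and haem list, so they count in both. DESeq2 called 1, 9 and 3 lower (2.22% of all genes) and 0 higher in each (2.97%). The median log2 fold changes of these lists were -0.33, -0.71 and -0.25, against -0.02 for all genes. In the other Cyp families edgeR called 3 of 25 tested genes lower (0.718% of all genes) and 0 higher. Those lower were Cyp7a1, the entry enzyme of bile acid synthesis, Cyp17a1, a steroid hydroxylase, and Cyp26a1, which breaks down retinoic acid. Of 14 periportal genes that are no members, edgeR called 3 lower (Sds, Asl and Arg1) and 1 higher (Cdh1). At an unadjusted p under 0.05, 9 of the 14 were lower and 2 higher, and DESeq2 called 7 lower and 1 higher. Their median was -0.74, and their sum was 5594 to 7135 CPM in HFD and 12910 to 13698.5 CPM in chow livers. Of 15 pericentral genes 0 were called by edgeR (2 were lower at an unadjusted p under 0.05 and by DESeq2), with a median of -0.06. Of the 11 hepatocyte markers 0 were called by edgeR (3 at an unadjusted p under 0.05, 1 by DESeq2), and their sum was 123667 to 135440 CPM in HFD and 109117 to 131442 CPM in chow livers. Among 6 proliferation genes 5 were called higher, and their sum was 299 to 455 CPM in HFD and 27.7 to 61.3 CPM in chow livers; its part in the levels of the P450 genes was not tested. In the list of growth hormone signalling and sex-biased control, Stat5a was called higher. In the marker lists of other liver cells, edgeR called 0 genes; DESeq2 called 2 cholangiocyte markers higher, 2 stellate cell markers lower and 1 monocyte and neutrophil marker lower, and 0 for Kupffer cells, sinusoidal endothelium, and T, NK and B cells.

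SSO livers were set against vehicle livers to see which transcripts differ after a dose given ahead of surgery. Cyp2d9, the male-predominant testosterone hydroxylase, rose 3.52-fold in SSO livers over vehicle livers, and the other members did not pass the test. Of 47 genes tested, edgeR's quasi-likelihood test with Benjamini-Hochberg adjustment called 1 (0.45% of 15788 genes tested), 1 higher (0.317% of all genes) and 0 lower (0.133% of all genes). At an unadjusted p under 0.05, 10 members were higher, against 7.96% of all genes, and 3 lower, against 12.5%. DESeq2 called 5 members higher, against 2.38% of all genes to which it gave an adjusted p, and 2 lower, against 3.97%. The log2 fold change was above 0 for 34 of 47 members, against 47.0% of all genes, and below 0 for 13, against 53.0%, with a median of 0.41, against -0.04. Fitted changes of at least 2-fold were seen in 8 members on the higher side (5.03% of all genes) and 4 on the lower side (7.58%). The SSO and vehicle libraries did not overlap for 5 members on the higher side, against 6.14% of all genes, and for 2 on the lower side, against 5.62%. The families took 1.97% to 2.16% of counts in SSO libraries and 1.2% to 1.99% in vehicle libraries, with overlap.

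**Figure D3:**
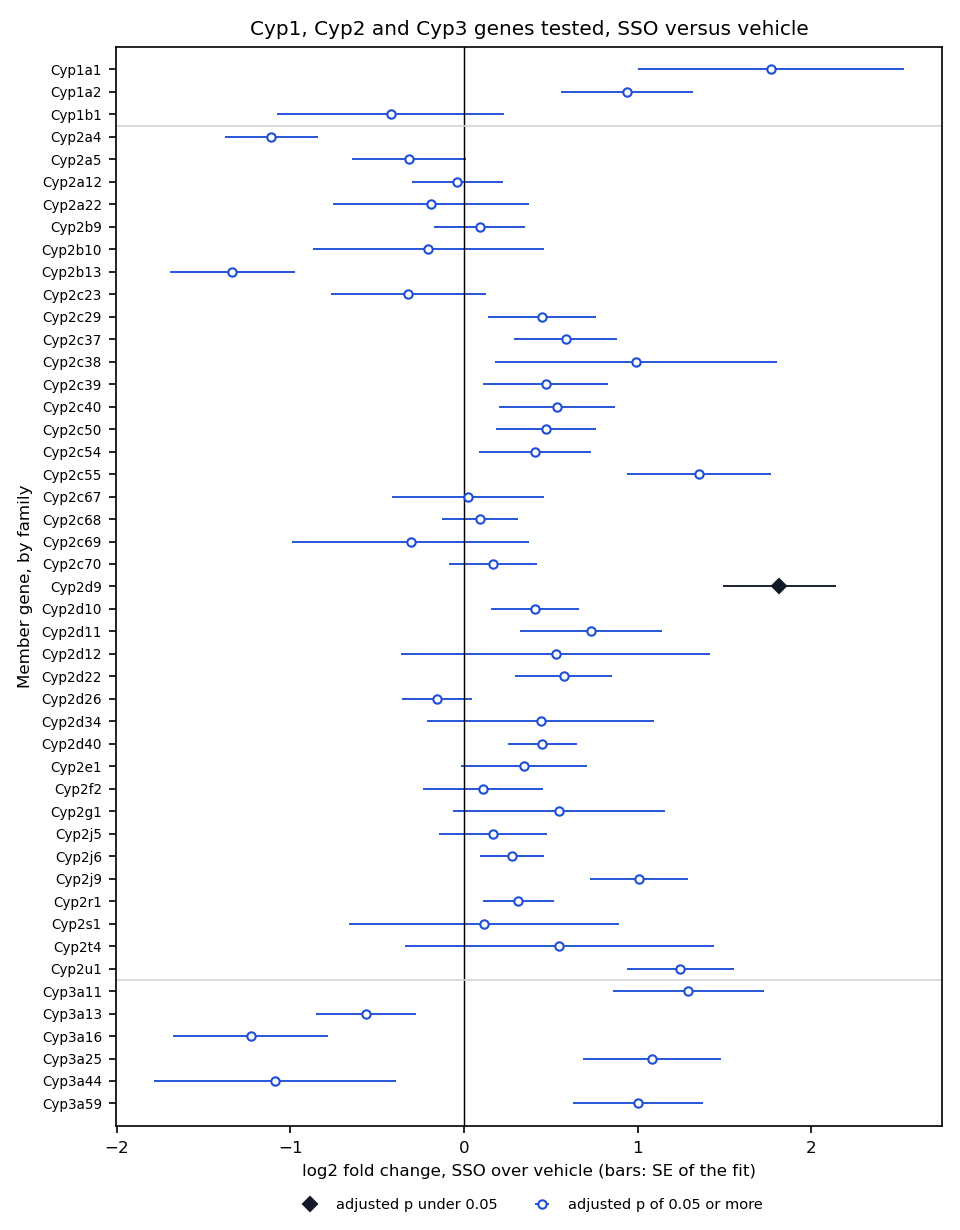
Fitted log2 fold change of SSO over vehicle for the 47 Cyp1, Cyp2 and Cyp3 genes tested (x axis), by family down the page; points are the edgeR estimates, bars the SE of the fit, and the filled diamond the gene with an adjusted p under 0.05. Cyp2d9 is that gene, at 1.82, and the lowest points are Cyp2b13, Cyp3a16, Cyp2a4 and Cyp3a44.

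Cyp2d9 (ENSMUSG00000068086, chromosome 15, 82433437 to 82456845, plus strand) measured 352, 564, 400.2 and 458 CPM in SSO 1 to 4, against 102, 101, 81.0 and 219.9 CPM in vehicle 1 to 4. Every SSO library lay above every vehicle library, and vehicle 4 stood apart from the other vehicle libraries. On the same strand, 9.26% of its exon length overlaps another annotated gene. The means were 444 ± 91.3 CPM in SSO livers and 126 ± 63.3 CPM in vehicle livers (SD, n = 4 each), a log2 fold change of 1.82 ± 0.32 (SE; edgeR adjusted p = 0.0459). The call was lost when any SSO library, vehicle 1 or vehicle 3 was left out, with adjusted p of 0.109 to 0.19, while the log2 fold change stayed between 1.66 and 2.24 in all 8 such fits. With the library number as a block its adjusted p was 0.0558 and Cyp1a1 was called instead.

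The vehicle libraries were uneven, which bears on every member. The median SD of a tested member on the log2 scale was 0.27 in SSO and 0.72 in vehicle livers, against 0.23 and 0.41 over all genes tested. Vehicle 3 was the lowest vehicle library in 31 of 47 members (22.6% of all genes), and vehicle 2 the highest in 25 (31.0% of all genes). Mitochondrially encoded genes took 15.2% to 17.6% of counts in SSO and 4.99% to 22.5% in vehicle libraries. The highest share was in vehicle 2, where 18104 genes had counts, against 19639 to 20864 in the other inhibitor libraries. The 9 monocyte and neutrophil markers summed to 13.1 to 26.0 CPM in SSO and 30.3 to 396 CPM in vehicle libraries. Of the 8 tested, 7 were below 0 and 0 were called by edgeR. At an unadjusted p under 0.05, 5 were lower (12.5% of all genes), and DESeq2 called 4 lower (3.97%). The 10 stellate and fibroblast markers summed to 329 to 488 CPM in SSO and 339 to 953 CPM in vehicle libraries. Of these, 0 were called by edgeR, 3 were lower at an unadjusted p under 0.05 and 3 by DESeq2. In the other cell type lists edgeR called 0 genes, and DESeq2 called 1 cholangiocyte marker lower. The part of these differences in the P450 values was not tested. Without vehicle 2, edgeR called 11 members higher, against 6.96% of all genes, and 2 lower, against 9.23%; calls over all genes were 2646 in that fit, against 71 with every library.

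The abundant Cyp3a genes lay higher in SSO livers without passing the test. Cyp3a11 measured 3683, 3139, 4101 and 4472 CPM in SSO 1 to 4, against 921, 2476, 597 and 2296 CPM in vehicle 1 to 4. The groups did not overlap, and vehicle 1 and 3 were the low libraries (log2 fold change 1.29 ± 0.43, edgeR adjusted p = 0.15). Cyp3a25 measured 674, 965, 653 and 968 CPM in SSO 1 to 4, against 202, 622, 189.8 and 529 CPM in vehicle 1 to 4 (log2 fold change 1.08, adjusted p = 0.172). Cyp3a59 measured 48.8, 71.8, 42.3 and 63.9 CPM in SSO 1 to 4, against 16.2, 39.0, 13.9 and 44.3 CPM in vehicle 1 to 4 (log2 fold change 1.0, adjusted p = 0.181). Cyp3a25 was apart and Cyp3a59 overlapped slightly; in both SSO 2 and 4 were the high and vehicle 1 and 3 the low libraries. Cyp3a13 measured 99.1, 92.3, 121 and 135 CPM in SSO 1 to 4, against 159, 132, 99.9 and 272 CPM in vehicle 1 to 4, with overlap (log2 fold change -0.57, adjusted p = 0.293).

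Among the Cyp1 genes, Cyp1a2 measured 4092, 3014, 4451 and 3230.3 CPM in SSO 1 to 4, against 1100.3, 3366, 1108 and 2146 CPM in vehicle 1 to 4. Vehicle 2 lay inside the SSO range and vehicle 1 and 3 well below it (log2 fold change 0.94 ± 0.38, edgeR adjusted p = 0.208). Cyp1a1 measured 40.8, 4.15, 51.0 and 21.4 CPM in SSO 1 to 4, against 14.0, 2.22, 13.5 and 4.49 CPM in vehicle 1 to 4. SSO 2 and vehicle 2 were low in their groups and the groups overlapped (log2 fold change 1.77 ± 0.77, adjusted p = 0.238). Cyp1b1 measured 0.669, 2.29, 1.39 and 1.64 CPM in SSO 1 to 4, against 2.25, 2.45, 3.10 and 0.240 CPM in vehicle 1 to 4 (adjusted p = 0.738).

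**Figure D4:**
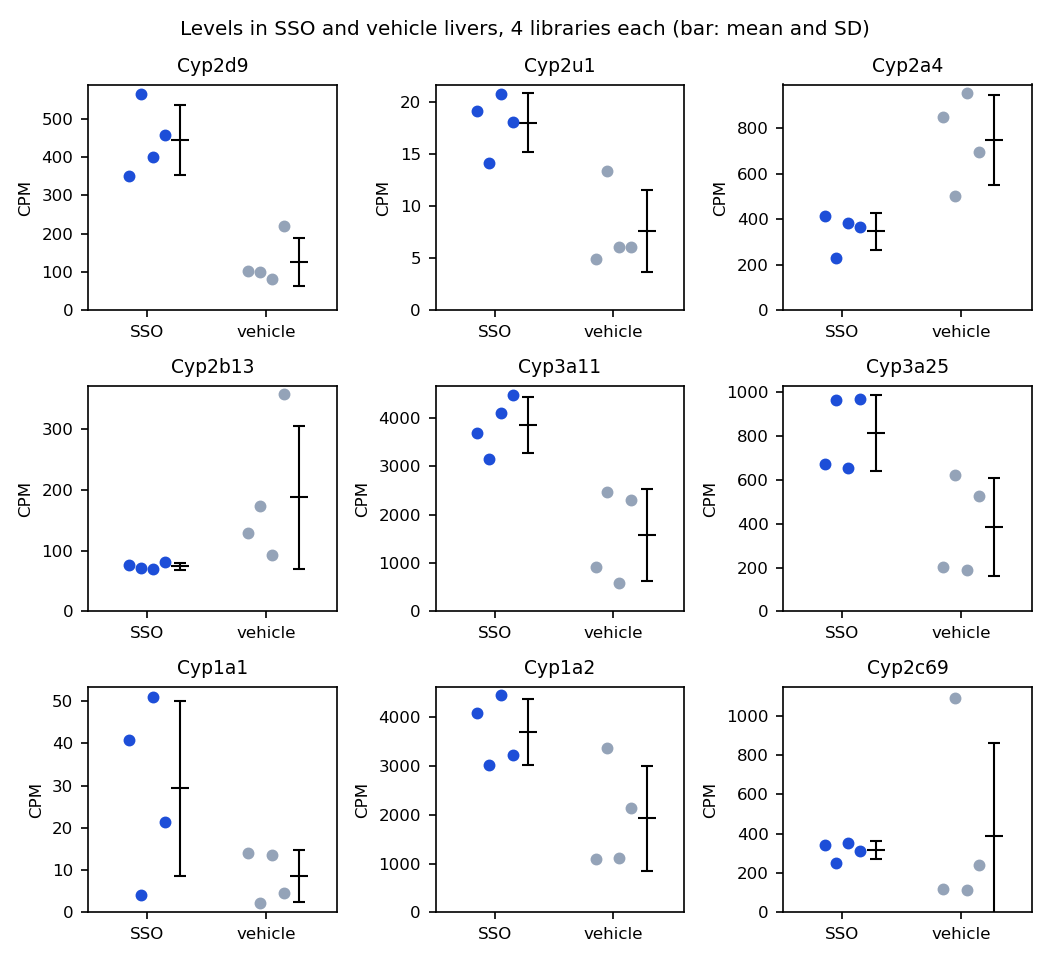
Levels of 9 members in each library (CPM, linear axes from 0), SSO left and vehicle right, with 4 points per group in the order of the libraries and a bar for the mean and SD (cut at 0 where it runs below). All SSO libraries lie above all vehicle libraries for Cyp2d9, Cyp2u1, Cyp3a11 and Cyp3a25, and below them for Cyp2a4 and Cyp2b13. Cyp2c69 has a high value in vehicle 2 alone.

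Cyp2u1 measured 19.2, 14.2, 20.7 and 18.1 CPM in SSO 1 to 4, against 4.92, 13.4, 6.10 and 6.07 CPM in vehicle 1 to 4. The groups were apart, though vehicle 2 came close to SSO 2 (log2 fold change 1.25 ± 0.31, edgeR adjusted p = 0.106). On the lower side, Cyp2a4, a steroid hydroxylase predominant in female mice, measured 413, 229, 382 and 364 CPM in SSO 1 to 4, against 848, 500.1, 955 and 693 CPM in vehicle 1 to 4 (log2 fold change -1.11 ± 0.27, adjusted p = 0.106). Cyp2b13 measured 76.7, 70.7, 69.0 and 81.3 CPM in SSO 1 to 4, against 128, 174, 92.4 and 357 CPM in vehicle 1 to 4 (log2 fold change -1.34 ± 0.36, adjusted p = 0.111). For both genes all SSO libraries lay below all vehicle libraries, the reverse of Cyp2d9. Cyp2b9 measured 268, 357, 273 and 391 CPM in SSO 1 to 4, against 246, 347, 198 and 419 CPM in vehicle 1 to 4, with no separation (adjusted p = 0.87). Cyp2b10 measured 39.2, 30.6, 42.6 and 39.2 CPM in SSO 1 to 4, against 32.6, 12.4, 12.0 and 118 CPM in vehicle 1 to 4, where the vehicle values lay on both sides (adjusted p = 0.883).

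The other named members were not called by edgeR, and their groups overlapped. Cyp2a5 measured 657, 647, 761 and 701 CPM in SSO 1 to 4, against 899, 359.6, 939.9 and 1246 CPM in vehicle 1 to 4 (log2 fold change -0.32, adjusted p = 0.608). Cyp2e1 measured 2684, 4377, 3488 and 3633 CPM in SSO 1 to 4, against 1940.4, 3700.4, 1417 and 4099 CPM in vehicle 1 to 4 (log2 fold change 0.35, adjusted p = 0.611). For these genes vehicle 1 and 3 lay together, high for Cyp2a5 and low for Cyp2e1, and vehicle 4 was the highest vehicle library for both. Cyp2d10 measured 742, 872, 815 and 806 CPM in SSO 1 to 4, against 457, 805, 432 and 745 CPM in vehicle 1 to 4 (log2 fold change 0.41, adjusted p = 0.378). Cyp2d26 measured 749, 699.9, 723 and 756 CPM in SSO 1 to 4, against 799, 872, 636 and 954 CPM in vehicle 1 to 4 (log2 fold change -0.16, adjusted p = 0.688). Cyp2d40, which rose in HFD livers, measured 34.3, 45.2, 40.1 and 38.4 CPM in SSO 1 to 4, against 25.4, 29.1, 21 and 40.2 CPM in vehicle 1 to 4 (log2 fold change 0.45, adjusted p = 0.237). Vehicle 3 was the lowest library of all 8 for these Cyp2d genes.

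Cyp2c29 measured 487, 558, 677 and 637 CPM in SSO 1 to 4, against 394, 502, 207 and 624 CPM in vehicle 1 to 4 (log2 fold change 0.45, edgeR adjusted p = 0.426). Cyp2c50 measured 763, 748, 875 and 894 CPM in SSO 1 to 4, against 435, 823, 353 and 756 CPM in vehicle 1 to 4 (log2 fold change 0.47, adjusted p = 0.374). In both epoxygenases vehicle 3 was low and vehicle 2 or 4 reached the SSO range. Cyp2f2 measured 456, 257, 383 and 384 CPM in SSO 1 to 4, against 235, 394, 179.7 and 564 CPM in vehicle 1 to 4 (log2 fold change 0.11, adjusted p = 0.88). Cyp2r1 measured 9.32, 9.10, 10.2 and 12.6 CPM in SSO 1 to 4, against 7.96, 9.94, 8.25 and 6.99 CPM in vehicle 1 to 4 (log2 fold change 0.31, adjusted p = 0.402). Vehicle 2 lay inside the SSO range for both. Of 13 Cyp2c genes tested 11 were above 0 and 2 below, and none had groups that did not overlap.

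Ahr, Nr1i2, Nr1i3 and Por were not called between SSO and vehicle livers. Ahr averaged 55.2 ± 5.16 CPM in SSO and 62.0 ± 3.17 CPM in vehicle livers (SD, n = 4 each; edgeR adjusted p = 0.495). Nr1i2 measured 89.0 to 129 CPM in SSO and 45.1 to 100.2 CPM in vehicle livers, with vehicle 1 and 3 again low (adjusted p = 0.248). Nr1i3 measured 20.9 to 43.2 CPM in SSO and 18.7 to 35.2 CPM in vehicle livers, and Por 296 to 359 CPM in SSO and 242 to 411 CPM in vehicle livers (adjusted p = 0.817 and 0.88). None of the genes tested in the Ahr list (9), the CAR and PXR list (22), the redox and haem list (15), the list of other phase I enzymes (16) and the growth hormone list (16) was called by edgeR. At an unadjusted p under 0.05, 1, 4, 3, 3 and 2 of them were higher (7.96% of all genes), in that order of lists. In the same order, 0, 0, 1, 0 and 2 were lower (12.5% of all genes). DESeq2 called 0, 3, 2, 1 and 0 higher (2.38% of all genes) and 0 lower in each (3.97%). In the other Cyp families edgeR called 1 of 25 tested genes higher (0.317% of all genes), Cyp26b1. At an unadjusted p under 0.05, 6 of the 25 were higher (7.96% of all genes) and 3 lower (12.5%). DESeq2 called 3 higher (2.38% of all genes) and 1 lower (3.97%). Of 6 proliferation genes edgeR called 1 lower (0.133% of all genes), Cdk1. All 6 were lower at an unadjusted p under 0.05 (12.5% of all genes), and DESeq2 called 3 lower (3.97%). Their median log2 fold change was -1.52, against -0.04 for all genes, and their part in P450 levels was not tested.

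The experiments share no library. Of the 40 members tested in both, 25 were below 0 in HFD livers and above 0 in SSO livers, as were 28.9% of the 14905 genes tested in both. A further 8 members were below 0 in both, 6 above 0 in both and 1 was above 0 in HFD and below 0 in SSO livers. Cyp3a25 had log2 fold changes of -1.66 in HFD and 1.08 in SSO livers, and Cyp3a59 of -2.09 in HFD and 1.0 in SSO livers. The treatments, collection times, tables and sex transcripts (Xist and Ddx3y) of the experiments differ. The comparisons are therefore set side by side, and their difference was not tested.

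Several members that are sex-predominant in mouse liver differed in level between the experiments. These levels come from tables made separately and are described without a test. Cyp2a4 and Cyp2b13 are female-predominant in mouse liver. Cyp2a4 had 2 to 12 counts per diet library, at most 0.314 CPM, and 229 to 955 CPM in every inhibitor library. Cyp2b13 measured 0 to 0.118 CPM in the diet libraries and 69.0 to 357 CPM in the inhibitor libraries. Cyp2b9, another female-predominant gene, measured 0, 0 and 0.295 CPM in HFD 1 to 3, against 0.0513, 8.53 and 0 CPM in chow 1 to 3, so chow 2 alone carried it among the diet libraries. In the inhibitor libraries Cyp2b9 measured 198 to 419 CPM. Cyp2d9, which is male-predominant, ran the other way, at 804 to 1868 CPM in the diet libraries and 81.0 to 564 CPM in the inhibitor libraries. Cyp2u1, the other member listed as male-predominant, overlapped, at 10.8 to 53.5 CPM in the diet libraries and 4.92 to 20.7 CPM in the inhibitor libraries. Summed over the 8 female-predominant members, the level was 1.96 to 15.1 CPM in HFD, 5.13 to 32.1 CPM in chow, 1197 to 1553 CPM in SSO and 1511 to 2619 CPM in vehicle livers. The difference ran with Xist and Ddx3y; sex, time after surgery and experiment cannot be told apart in it.

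**Figure D5:**
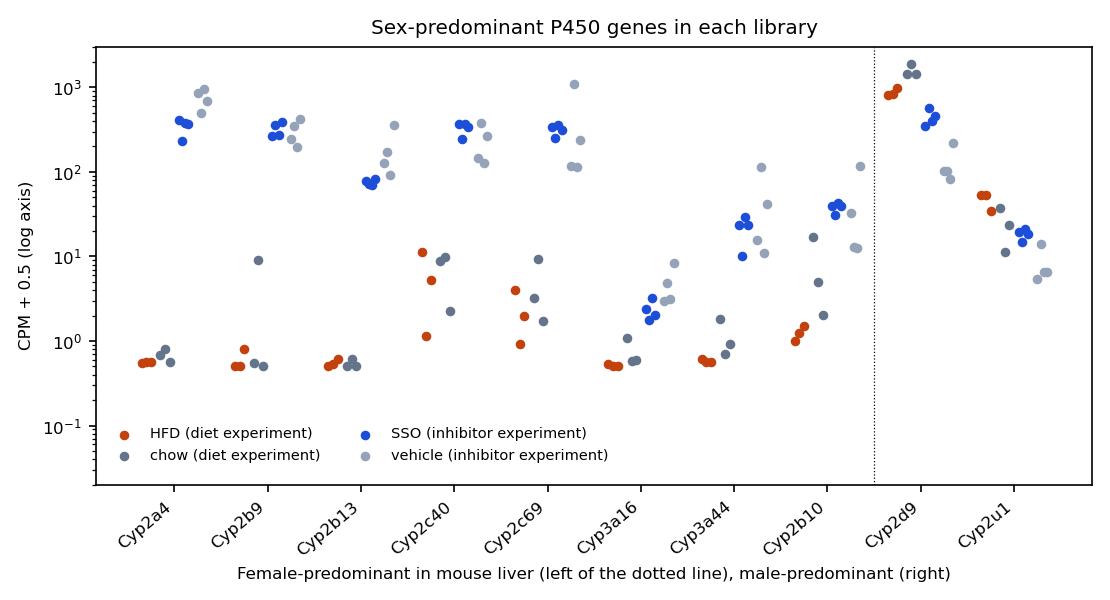
Levels of 10 sex-predominant members in each library (CPM + 0.5, log axis); for each gene the groups run HFD, chow, SSO and vehicle from left to right, and each point is a library. Of the female-predominant genes left of the dotted line, Cyp2a4, Cyp2b9 and Cyp2b13 are higher in every SSO and vehicle library than in any HFD or chow library. For Cyp2b10 chow 1 lies above vehicle 2 and 3. On the right, Cyp2d9 is higher in the HFD and chow libraries, while for Cyp2u1 the libraries of the experiments overlap.

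Cyp2a4 and Cyp2a5 show how closely such members resemble each other. Their promoters are given because Cyp2a5 measured 47.3 to 563 CPM in the diet libraries, where Cyp2a4 stayed under 1 CPM, although 212 of 216 bases before the start are the same (98.1%). Capitals mark the 4 bases that differ. For Cyp2a4, 10 bases lie between the end of the stretch and the start of the gene, while for Cyp2a5 the stretch ends directly before the start. The sequences are from RefSeq (GRCm38.p6), 5′ to 3′ on the plus strand, chr7:26306943-26307158 for Cyp2a4 and chr7:26835089-26835304 for Cyp2a5.
Cyp2a4: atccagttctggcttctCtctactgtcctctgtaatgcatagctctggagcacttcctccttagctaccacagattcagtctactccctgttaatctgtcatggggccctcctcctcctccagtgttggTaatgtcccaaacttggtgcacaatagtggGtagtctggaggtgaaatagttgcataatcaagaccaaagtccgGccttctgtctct
Cyp2a5: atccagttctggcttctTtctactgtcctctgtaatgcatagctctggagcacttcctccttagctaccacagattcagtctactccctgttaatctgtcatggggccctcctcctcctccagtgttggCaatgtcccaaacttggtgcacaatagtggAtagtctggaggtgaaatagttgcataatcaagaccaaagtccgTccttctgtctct
The level of each gene was counted over exons of which 11.2% (Cyp2a4) and 12.1% (Cyp2a5) of the stretches of 100 bases occur elsewhere, so the few Cyp2a4 counts of the diet libraries cannot be told apart from misplaced Cyp2a5 reads.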

How the data were processed

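Liver RNA was selected with polyT before sequencing, per the labels' protocols. The authors deposited raw counts per Ensembl gene. Tools listed in the submitters' processing notes are featureCounts 2.0.2, HISAT2 2.2.1, Trim Galore 0.6.1 and DESeq2, on GRCm38. Strand setting, handling of reads with several matches and annotation release: not given in the sources used here. Symbols and coordinates came from GENCODE M21 (1-based; 55227 of 55487 identifiers matched). Each group has 1 record in the labels, so columns were assigned by their names, and columns of control libraries were taken as chow or vehicle by table.

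Each table was fitted alone with edgeR 4.0.16 (R 4.3.3), using filterByExpr, trimmed-mean (TMM) scaling, the robust quasi-likelihood test with group as the only term, and Benjamini-Hochberg adjustment over all genes tested. CPM use TMM-scaled sizes. Every pair of libraries within a group differed by more than sampling noise. The alternatives were library size alone, RLE scaling, no filter, DESeq2 1.42.0, limma-voom (limma 3.58.1), leaving out mitochondrially encoded genes, a replicate block, and leaving out each library. The procedure was tested on simulated counts.

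Members and lists were chosen with earlier results of these data known. The named members are those called, the 8 highest per kb in each experiment and 16 members named whatever their values. Cyp2c70, Cyp2c23, Cyp2c67, Cyp2c69, Cyp2d12, Cyp3a16 and Cyp3a44 were added after their values were seen. The macrophage and single-cell samples of the series were not used here. A result on 1 gene outside the families is not reported here.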

Additional observations from a re-analysis of the deposited data

Results flagged for a closer look

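In the inhibitor experiment, 44 groups of 4 libraries of the 22 named members were checked for a library far from the others, of which chance marks about 1 in 20, and 2 stood out; groups of 3 were not checked. Cyp2d9 measured 219.9 CPM in vehicle 4, against 81.0 to 102 CPM in the other vehicle libraries and 352 to 564 CPM in SSO libraries. Without vehicle 4 the log2 fold change of Cyp2d9 was 2.24, with an edgeR adjusted p of 0.0023. Cyp2u1 measured 13.4 CPM in vehicle 2, against 4.92 to 6.10 CPM in the other vehicle libraries and 14.2 to 20.7 CPM in SSO libraries. Without vehicle 2 its log2 fold change was 1.66, with an edgeR adjusted p of 0.00145.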

How the results depend on the processing

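The diet calls, 1 higher and 2 lower by edgeR, were the same 3 genes with library size alone, RLE scaling, mitochondrially encoded genes left out and the replicate block. The members called lower were 9 without the filter, 20 with DESeq2 and 5 with limma-voom, and each of these kept the 3 genes and called 1 higher. Leaving out a library gave 0 to 3 members higher and 1 to 11 lower. All genes called were 361, and 672 without the filter, 859 with DESeq2 and 86 to 681 with a library left out. The inhibitor call, 1 higher and 0 lower, became 0 with library size alone, 2 higher without the filter, and 5 higher and 2 lower with DESeq2. Leaving out a library gave 0 to 11 members higher and 0 to 2 lower. All genes called were 71, and 37 with library size alone, 205 without the filter, 1136 with DESeq2 and 0 to 2646 with a library left out, the highest without vehicle 2.

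Over all genes tested, the deviations of same-numbered libraries from their group means correlated at -0.11 to 0.03. This does not cover single genes. Cyp3a25 and Cyp3a59 had the same libraries high in both inhibitor groups, while Cyp2d9 did not, and a shared order was not tested. With the replicate block, 206 genes were called in the diet and 47 in the inhibitor experiment; members called were 1 higher and 2 lower, and 1 higher (Cyp1a1) and 0 lower. Scaling by library size alone moved the median log2 fold change of all genes to 0.13 (HFD) and -0.20 (SSO); the members' median was then -0.74 and 0.31.

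Direction turned for uncalled genes near 0, and the cause was not tested. With a library left out, Cyp2f2 ranged from -0.20 (without chow 3) to 0.95 (without chow 1) and Cyp2r1 from -0.29 to 0.029 (without chow 1) in HFD livers. In SSO livers with a library left out, Cyp2b9 ranged from -0.061 (without vehicle 3) to 0.30, Cyp2b10 from -0.52 to 1.01 (without vehicle 4) and Cyp2f2 from -0.10 (without vehicle 3) to 0.47. With library size alone Cyp2r1 was 0.043 (HFD) and Cyp2b9 -0.020 (SSO). Cyp2b10 was 0.44 with limma-voom and 0.49 with the replicate block (SSO). The 11 members tested in neither experiment had too few counts to pass the filter, and 6 of them had 0 counts in every library. Whether deeper sequencing would detect them was not tested.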

Other observations

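Dbp, Tef and Hlf, transcription factors of the PAR bZIP family that follow the daily clock and act on P450 genes in mouse liver, were added after their values were seen. Dbp measured 2.45, 2.33 and 1.74 CPM in HFD 1 to 3, against 13.3, 19.0 and 8.18 CPM in chow 1 to 3 (log2 fold change -2.64 ± 0.32, edgeR adjusted p = 0.00576). Tef measured 30.4, 36 and 43.3 CPM in HFD 1 to 3, against 80.7, 169 and 94.3 CPM in chow 1 to 3 (-1.65 ± 0.29, adjusted p = 0.0287). Both fell in HFD livers, with no overlap between the groups; each overlaps an annotated gene on the other strand (Sphk2 for Dbp, Gm17597 for Tef). Hlf averaged 42.2 ± 8.36 CPM in HFD and 56.1 ± 19.5 CPM in chow livers (SD, n = 3 each; adjusted p = 0.522). In the inhibitor experiment Dbp measured 10.2, 31.1, 7.52 and 22.9 CPM in SSO 1 to 4, against 2.74, 20.7, 4.95 and 8.26 CPM in vehicle 1 to 4, and none of the 3 was called (adjusted p of 0.417, 0.301 and 0.814).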
